A study of Mus musculus with 6 samples.

Results

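Second-passage mouse dental mesenchymal cells (mDMCs) were compared with first-passage cells across all genes, as the 4 libraries labelled P2 or P1 of the 6 in the series (2 P2 and 2 P1). The cells came from the mesenchyme of lower first molar tooth germs of ICR mouse embryos at embryonic day 14.5. P2 and P1 cells had been grown on plastic in Dulbecco's modified Eagle's medium with fetal bovine serum and passaged at 90% confluence. The freshly isolated cells, P0 (2 libraries), are the starting point of the same series. All cells carried the same genotype and received no further agent, and all were harvested with trypsin. The sequencing is described as done in duplicate. Nothing says that the duplicates were separate cultures, so the p-values measure only the spread between these libraries, which may be technical. The labels name no batch or date.

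Expression is given in scaled units, which are the authors' normalized values divided by the total of the passage and multiplied by 1000000. One such unit is 18.72 on the deposited scale. The tables give a mean and an error per gene and passage, from which the values of the 2 libraries follow, though not which belongs to replicate 1. Read depth is unknown, because the values are normalized and are not counts. Log2 fold changes are P2 over P1 after 1 unit was added to each value, a scale on which low genes change less than their raw ratio. A gene was called when limma's moderated test gave a Benjamini-Hochberg adjusted p under 0.05 with a change of at least 2-fold. All 11386 genes passed the filter on low values, which was 1 unit in 2 libraries. On the P1 and P2 libraries alone 11219 of them would have passed. Every gene also reached a higher floor, already present in the deposited values, in at least 2 of the 6 libraries. For 10755 genes at least 2 of the P1 and P2 libraries reached that floor. A gene under it in all P1 and P2 libraries is therefore present only if both P0 libraries reached it.

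Dental mesenchyme derives from the cranial neural crest and gives rise to the dental pulp and to odontoblasts, the cells that lay down dentin. When cells of a primary tissue are placed on plastic, those that attach and divide are carried through each passage, and cells that do neither are lost. Division needs the machinery of DNA synthesis, the histones that package new DNA and the proteins of the mitotic spindle. Many transcripts of these groups are made mostly in dividing cells, so in a bulk sample the level of those transcripts follows the share of such cells. Fewer dividing cells and less of each transcript per dividing cell cannot be told apart in these libraries.

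All 12 listed markers of mesenchyme were measured at over 1 unit in both passages. In 3 of them both P2 values lay above both P1 values and in 3 both lay below (18.4% and 19.9% of all genes). *Vim*, among the lower ones, was the 1 called. *Col1a2*, a chain of type I collagen, stood at the highest value of the tables in both P2 and both P1 libraries. *Prrx1*, a homeobox gene of craniofacial and limb mesenchyme, had 940.4 and 1052.5 units in P2, against 1172.8 in both libraries of P1. *Twist1*, a mesenchymal transcription factor gene, had 69.7 and 79.0 units in P2 and 73.5 and 79.7 units in P1. Of the 6 measured markers of dental epithelium, 5 averaged under 1 unit in both passages, and so did 8 of 17 endothelial, 6 of 9 red cell, 2 of 8 macrophage, 2 of 8 pericyte, 2 of 5 Schwann cell and 1 of 7 cartilage markers. None of the 9 skeletal muscle, 6 neuron, 5 osteoclast and 4 adipocyte markers that were measured did.

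The second passage changed few genes. Of 11386 genes 34 were called (0.299%), 10 of them higher in P2 (0.0878%) and 24 lower (0.211%). In P1 against P0, 2755 genes were called in the same fit (24.2%), 1386 higher (12.2%) and 1369 lower (12%). In P2 against P0, 3234 were called (28.4%), 1596 higher (14%) and 1638 lower (14.4%), of which 676 had not been called in P1 against P0. Some genes called lower than in P0 are present only because both P0 libraries reached the floor, so their direction against P0 was fixed by it. The median absolute log2 fold change was 0.141 in P2 against P1 and 0.504 in P1 against P0. Changes under 1.5-fold made up 93.5% of genes in P2 against P1 and 55.8% in P1 against P0. For 10175 genes (89.4%) the 95% interval of P2 against P1 lay within 2-fold in both directions. The 2 libraries of a passage differed by a median of 0.170 on the log2 scale in P2 and 0.177 in P1. These are differences between single libraries, whereas 0.141 is a difference between means of 2 libraries. Means vary less than single values, so the sizes cannot be compared directly. Library values of P2 and P1 did not overlap in 4361 genes (38.3%), of which 2090 were higher in P2 and 2271 lower. With a 2-fold difference in addition, 36 were higher (0.316%) and 75 lower (0.659%). Between the passages the normalization left the sorted values identical at 87.3% of positions, so a shift shared by most genes could not show in these values.

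**Figure D1:**
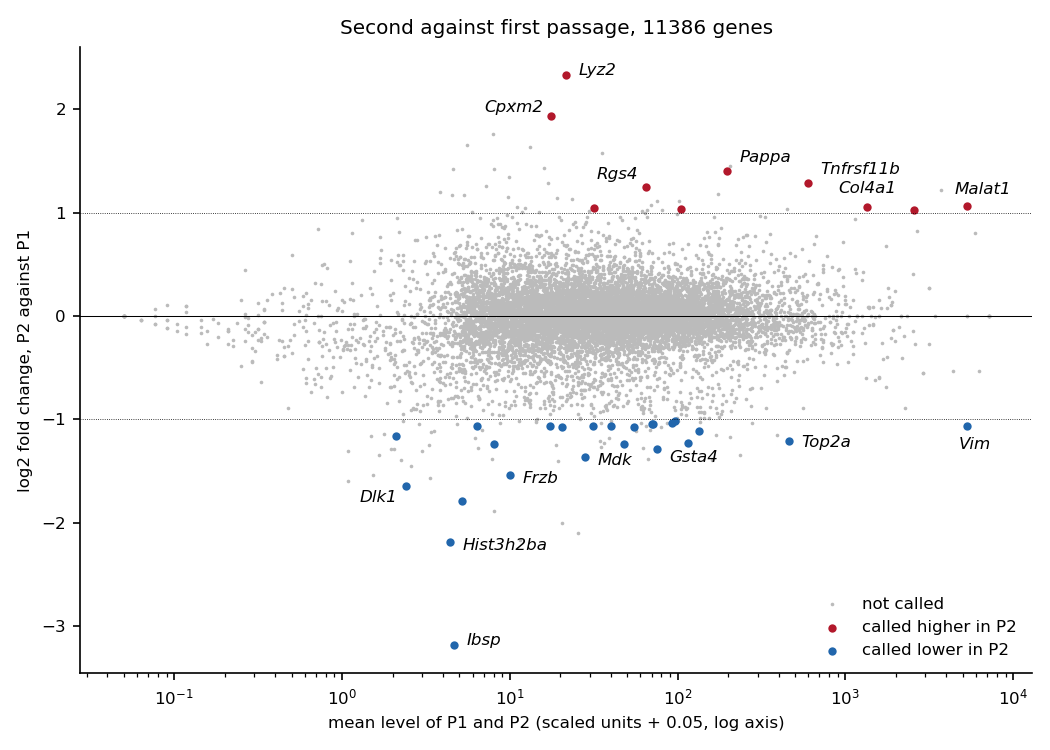
Log2 fold change of P2 against P1 (vertical axis) by mean level of both passages (horizontal log axis, scaled units) for all 11386 genes. The 10 genes called higher in P2 (red) and the 24 called lower (blue) lie at the edges of a band in which 93.5% of genes are under 1.5-fold (dotted lines mark 2-fold).

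These calls rest on a spread estimated from all 6 libraries. When only the 4 libraries of P2 and P1 were fitted, limma called 0 of 11219 genes, with 1114 at an unadjusted p under 0.05 and a smallest adjusted p of 0.0979. The P0 duplicates lay closer together than the others (median log2 difference 0.098). The most abundant genes differ only by steps, because the normalized values of each library come in tiers of 10 genes, with 7150, 3430 and 2340 units in the first 3 tiers.

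Genes of cell division were lower in P2 than in P1 as a body. The lists of mitosis, DNA replication and histone genes hold 156 measured genes, each counted once. In 148 of them both P2 values lay below both P1 values, against 19.9% of all genes, and in 0 both lay above. Of the 156, 9 were called lower and 0 higher. Without a minimum fold 103 genes were lower at an adjusted p under 0.05 (0.905%), and 54 of these were on the 3 lists. The members had been chosen with earlier results of these data known, so these counts are a description.

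The 48 measured genes of mitosis and chromosome segregation had a median log2 fold change of -0.81, against 0.003 over all genes, and ranged between -1.20 and -0.41. All 48 had both P2 values below both P1 values, and 34 were lower at an adjusted p under 0.05 of any fold. Called were *Top2a*, *Melk*, *Lmnb1* and *Kif11*, of which the last 3 were under 2-fold and not called with a pseudocount of 5 (-0.89, -0.99 and -0.99). *Top2a* encodes the topoisomerase that untangles DNA before chromosomes separate and lies on chromosome 11 from 98992943 to 99024189 (mm10). It had 259.9 and 293 units in P2, against 553 and 734 units in P1. The passages did not overlap, and P2 was lower in every pair of libraries (log2 fold change -1.20, standard error 0.18, adjusted p = 0.0493). *Top2a* lost its call when the passages were scaled by the median ratio of genes, at nearly the same fold change (-1.20).

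*Kif11*, a kinesin that pushes the spindle poles apart, had 56.3 and 65.0 units in P2, against 117.9 and 132 units in P1 (log2 fold change -1.03, standard error 0.12, adjusted p = 0.0386). *Melk*, a kinase gene that peaks in mitosis, had 12.4 and 13.1 units in P2, against 25.9 and 30.1 units in P1 (-1.07). *Lmnb1*, which encodes lamin B1 of the nuclear envelope, had 31.9 and 38.1 units in P2 and 71.8 and 77.0 units in P1 (-1.07). In each of the 3 genes P2 was at about the same fraction of P1. *Bub1b*, a gene of the spindle checkpoint, and *Ccna2*, which encodes cyclin A2, came just short of 2-fold. *Bub1b* had 61.5 and 70.4 units in P2, against 120.7 and 143.6 units in P1 (-0.99, adjusted p = 0.0386). *Ccna2* had 100.3 and 103.8 units in P2, against 186.7 and 221 units in P1 (-0.99, adjusted p = 0.0446). The proliferation marker *Mki67* had 92.5 and 96.9 units in P2, against 153.6 and 198 units in P1 (-0.88, adjusted p = 0.0538). At the near end of the list, *Plk4*, the kinase that starts centriole duplication, had 45.3 and 47.2 units in P2 and 60.4 and 63.3 units in P1 (-0.41, adjusted p = 0.106).

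Among 40 genes of DNA replication the median log2 fold change was -0.66, and all 40 had a fitted value below 0. In 39 both P2 values lay below both P1 values, and *Gins3*, a subunit of the replicative helicase complex, overlapped. Only *Tk1*, the thymidine kinase gene, was called, and with a pseudocount of 5 it was not (-0.98). It had 43.4 and 48.5 units in P2, against 91.4 and 99.6 units in P1 (-1.04, standard error 0.12, adjusted p = 0.0386). *Cdc6*, a gene of origin licensing, had 15.1 and 17.1 units in P2, against 27.8 and 32.6 units in P1 (-0.87, adjusted p = 0.0473). *Pcna*, the sliding clamp of the polymerases, had 87.1 and 108 units in P2 and 145.5 and 148 units in P1 (-0.59, adjusted p = 0.0887). Each of the 3 genes was lower in P2 without overlap.

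Histone genes had the lowest median of the 28 functional lists, at -0.90 over 68 measured genes, of which 61 had both P2 values below both P1 values and 67 a fitted value below 0. Called were *Hist3h2ba*, *Hist1h2bm*, *Hist2h3c2* and *Hist1h3f*. *Hist3h2ba*, a histone H2B gene on chromosome 11 from 58948920 to 58949533 (mm10), had 0.801 and 1.07 units in P2, against 7.26 and 8.28 units in P1 (-2.18, standard error 0.16, adjusted p = 0.0301). *Hist1h2bm*, another H2B gene, had 23.9 and 32.6 units in P2, against 62.0 and 72.5 units in P1 (-1.23, adjusted p = 0.0473). The H3 gene *Hist2h3c2* had 60.2 and 78.8 units in P2, against 157 and 167 units in P1 (-1.22). In *Hist1h3f*, a further H3 gene, P2 had 71.1 and 98.8 units and P1 had 176 and 188 units (-1.11). No histone gene was called higher. Many histone genes are near-identical copies, so the split of reads between single members is uncertain. The list is not limited to replication-dependent histone genes, and *H1f0*, *H3f3a* and *H3f3b* are on it too. Most replication-dependent histone transcripts end without a poly(A) tail. The paper names the Illumina TruSeq RNA kit and speaks of total mRNA, without describing a selection step. What part of the histone transcripts was sequenced is therefore unknown.

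**Figure D2:**
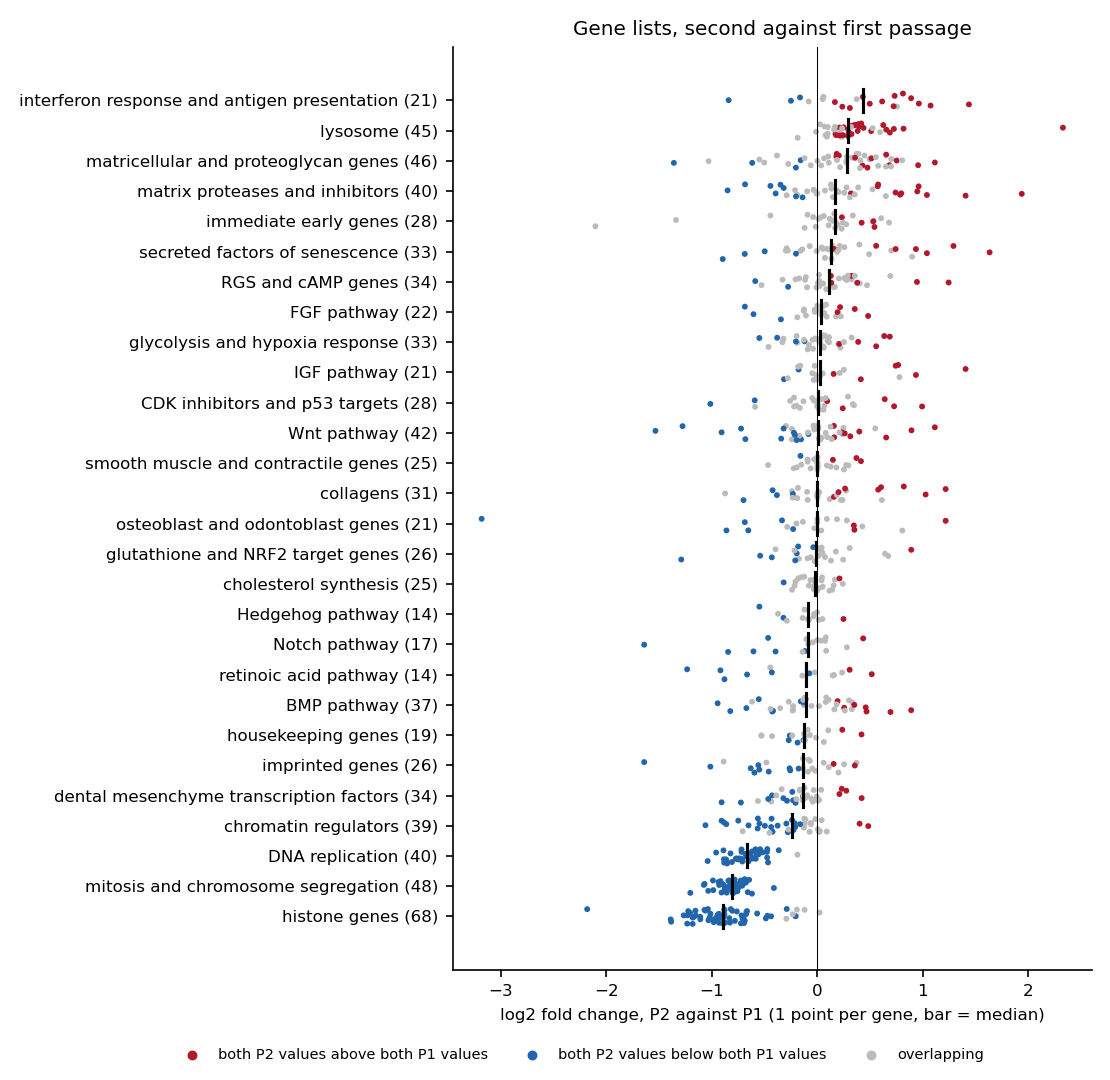
Log2 fold change of P2 against P1 (horizontal axis) of each measured gene on 28 functional lists, with the number of genes in brackets and the median as a black bar. Genes with both P2 values above both P1 values are red, those with both below are blue and overlapping ones are grey. The histone, mitosis and replication lists stand to the left at medians of -0.90, -0.81 and -0.66.

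Among the genes called lower outside these 3 lists, *2810417H13Rik*, known as *Pclaf*, encodes a partner of the replication clamp. It had 44.0 and 48.3 units in P2, against 95.3 and 97.4 units in P1 (-1.05). *Fam64a*, a mitotic gene, had 23.6 and 27.4 units in P2, against 49.5 and 59.3 units in P1 (-1.06). *Arhgap19*, a GTPase-activating protein gene, had 10.3 and 11.6 units in P2 and 23.2 and 24.5 units in P1 (-1.06). *Hmgb3*, a chromatin protein gene, had 17.7 and 22.2 units in P2 and 42.0 and 42.9 units in P1 (-1.06). *Sapcd2* was lower too, at 3.69 and 3.85 units in P2 and 8.39 and 9.51 units in P1 (-1.06). With a pseudocount of 5 all 5 were under 2-fold and not called, with values between -0.99 for *2810417H13Rik* and -0.67 for *Sapcd2*. Chromatin regulators that act at the replication fork stood with them without reaching 2-fold. *Dnmt1*, the maintenance DNA methyltransferase, had 151 and 159.6 units in P2, against 257.7 and 265.8 units in P1 (-0.75, adjusted p = 0.0386). *Uhrf1*, which guides it to new DNA, had 78.8 and 79.7 units in P2, against 139 and 155.7 units in P1 (-0.89, adjusted p = 0.0386). *Ezh2*, a histone methyltransferase gene, had 19.7 and 20.9 units in P2 and 31.7 and 33.2 units in P1 (-0.65, adjusted p = 0.0473). Of 39 chromatin regulators 21 had both P2 values below both P1 values and 2 had both above (19.9% and 18.4% of all genes), at a median of -0.24.

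The promoters of 4 of the called genes are shown because CCAAT boxes, which the factor NF-Y binds, are a known feature of cell cycle and histone promoters. Each sequence is the 250 bases before the gene's first listed start in RefSeq (GRCm38.p6), read 5′ to 3′ on the gene's own strand, with CCAAT or its reverse complement ATTGG in capitals. In *Hist1h2bm* the octamer ATTTGCAT is in capitals as well. The windows are chr11:99024190-99024439 (minus strand) for *Top2a*, chr19:37376132-37376381 (plus strand) for *Kif11*, chr9:65890073-65890322 (plus strand) for *2810417H13Rik* and chr13:21721794-21722043 (plus strand) for *Hist1h2bm*.
Top2a: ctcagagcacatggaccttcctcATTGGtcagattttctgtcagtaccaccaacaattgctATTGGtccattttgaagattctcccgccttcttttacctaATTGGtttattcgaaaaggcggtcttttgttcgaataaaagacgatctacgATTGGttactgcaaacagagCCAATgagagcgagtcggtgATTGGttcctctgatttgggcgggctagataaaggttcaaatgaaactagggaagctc
Kif11: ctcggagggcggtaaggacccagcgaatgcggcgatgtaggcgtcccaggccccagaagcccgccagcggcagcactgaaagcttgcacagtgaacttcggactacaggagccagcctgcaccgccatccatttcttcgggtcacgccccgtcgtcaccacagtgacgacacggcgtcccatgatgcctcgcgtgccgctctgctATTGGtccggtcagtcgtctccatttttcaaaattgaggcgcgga
2810417H13Rik: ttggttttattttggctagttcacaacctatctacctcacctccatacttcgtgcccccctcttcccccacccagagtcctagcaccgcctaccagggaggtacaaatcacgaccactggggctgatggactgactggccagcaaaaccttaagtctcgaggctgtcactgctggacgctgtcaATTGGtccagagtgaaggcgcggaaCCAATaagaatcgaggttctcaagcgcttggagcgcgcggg
Hist1h2bm: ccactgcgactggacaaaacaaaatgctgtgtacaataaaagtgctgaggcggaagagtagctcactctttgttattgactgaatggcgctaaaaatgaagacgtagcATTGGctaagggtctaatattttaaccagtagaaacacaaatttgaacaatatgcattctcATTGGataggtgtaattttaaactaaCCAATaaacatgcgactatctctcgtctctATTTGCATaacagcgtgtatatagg
The *Top2a* window holds 6 CCAAT matches, that of *Kif11* 1, that of *2810417H13Rik* 2 and that of *Hist1h2bm* 3.

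Over all 27025 RefSeq promoter windows of this length, 34.5% hold CCAAT on either strand, and over the windows of tested genes 37.5% do. RefSeq windows were found for 25 of the 34 called genes. The motif was in 10 of the 18 windows of genes called lower (55.6%) and in 3 of the 7 windows of genes called higher (42.9%). It was in 26 of 40 mitosis windows (65.0%), 20 of 33 replication windows (60.6%) and 50 of 62 histone windows (80.6%). The octamer ATTTGCAT, or ATGCAAAT on the other strand, was in 12 of the 62 histone windows (19.4%), against 1.3% of the windows of tested genes. TTTGAA, or TTCAAA, is the core of the cell cycle homology region. It was in 13 of 40 mitosis windows (32.5%), 5 of 33 replication windows (15.2%) and 25 of 62 histone windows (40.3%). Of the windows of tested genes 10.7% held it. Each motif was counted on its own, so matches of different motifs may share bases. A match is a description of the sequence and not a bound site, and the lists were not tested against other promoters.

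Genes of cell division had differed in their course up to P1. The steps P1 against P0 and P2 against P1 share the P1 libraries, so they are given side by side, and the difference between them was not tested. The mitosis list had a median of -0.11 in P1 against P0, where 1 gene was called higher and 3 lower, and -0.81 in P2 against P1. *Hmmr*, a spindle and hyaluronan-receptor gene, averaged 84.5 units in P0 and had 135.8 and 140.9 units in P1 and 72.4 and 77.5 units in P2. *Anln*, which encodes the contractile ring protein anillin, had a mean of 89.8 units in P0, was called higher in P1 (1.32, with 213 and 238 units) and had 105.6 and 130.5 units in P2. Its P2 difference from P1 of -0.94 had an adjusted p of 0.0538. The replication list had medians of -0.78 and -0.66 in the 2 steps, with 15 of 40 genes called lower in P1 against P0. The histone list had -0.88 and -0.90, with 26 of 68 called lower and 1 higher in P1 against P0. Over all genes 12% were called lower and 12.2% higher in that step.

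**Figure D3:**
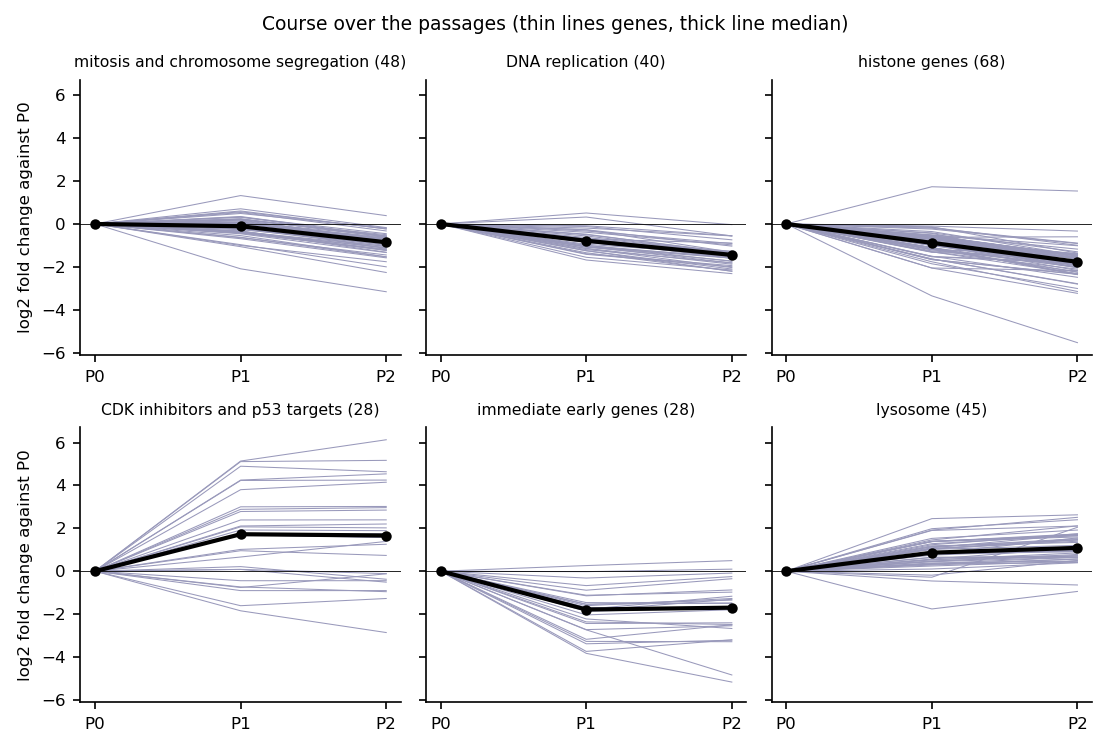
Log2 fold change against P0 (vertical axis) at P0, P1 and P2 for genes of 6 lists, with thin lines for genes and a thick line for the list median. The mitosis median is near 0 at P1 (-0.11) and lower at P2, the medians of replication and histone genes are lower at each step, and those of CDK inhibitors and p53 targets and of immediate early genes differ from P0 at P1 and lie near their P1 level at P2, with single immediate early genes spread widely.

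CDK inhibitors hold cyclin-dependent kinases inactive, and p53 switches on several of them after stress or damage. Of 28 measured genes 17 were called higher in P1 against P0 and 2 lower (12.2% and 12% of all genes), at a median of 1.73. In P2 against P1 the median was 0.01, 1 gene was called lower, and 22 of 28 had a 95% interval within 2-fold, against 89.4% of all genes. *Cdkn1a*, which encodes p21, averaged 1.28 units in P0 and had 66.1 and 91.7 units in P1 and 68.4 and 96.3 units in P2. *Phlda3*, a p53 target, averaged 27.1 units in P0 and had 206.6 and 242 units in P1 and 202.9 and 252 units in P2. The P1 and P2 values of both genes overlapped. *Cdkn2b*, which encodes p15, stood apart from these, with 0.214 units in both P0 libraries, 35.9 and 48.5 units in P1 and 66.2 and 106.5 units in P2. Its P2 values did not overlap those of P1, but the difference (0.99, standard error 0.25) had an adjusted p of 0.153. The called gene was *Cdkn1c*, an imprinted inhibitor gene that encodes p57. It had 57.5 and 69.3 units in P2, against 117.5 and 140.5 units in P1 (-1.01, standard error 0.15, adjusted p = 0.0473), and with a pseudocount of 5 it was not called (-0.97).

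Of the 34 called genes 23 went on in the direction of the first step, as called in P1 against P0 and again in P2 against P1. These were 17 genes that fell in both steps and 6 that rose in both. In *Dlk1* and *Tnfrsf19* the direction of the first step was fixed by the floor of the deposited values, as given below. *Ibsp* encodes bone sialoprotein, a matrix protein of mineralizing tissue, and lies on chromosome 5 from 104299171 to 104311469 (mm10). It averaged 51.5 units in P0, had 7.48 and 10.8 units in P1, and was listed at 0 in 1 P2 library with 0.214 units in the other. Its log2 fold change of P2 against P1 was -3.18 (standard error 0.21, adjusted p = 0.0301). Because P2 was so low, the fitted value depended on the pseudocount, with -5.68 at a pseudocount of 0.1 and -1.46 at 5. The other genes of mineralization did not pass the test. *Alpl*, the alkaline phosphatase gene, had 1.60 and 1.92 units in P2 and 2.83 and 5.55 units in P1 (adjusted p = 0.220). *Sp7*, a transcription factor gene of osteoblasts, had 0.214 and 0.321 units in P2 and 0.534 and 1.71 units in P1 (adjusted p = 0.370). Of 21 osteoblast and odontoblast genes 6 had both P2 values below both P1 values and 3 had both above, near the shares of all genes (19.9% and 18.4%).

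Of the 17 continued falls, *Ibsp* and the 6 genes whose values follow are on none of the mitosis, replication and histone lists. The same holds for *2810417H13Rik*, *Arhgap19*, *Hmgb3*, *Sapcd2* and *Cdkn1c*, whose values are given above. *Frzb*, a secreted Wnt antagonist, averaged 552 units in P0 and had 12.7 and 18.2 units in P1 and 4.27 and 4.92 units in P2 (P2 against P1 -1.53, standard error 0.17, adjusted p = 0.0386). *Mdk*, the heparin-binding growth factor midkine, averaged 204.8 units in P0 and had 40.2 and 41.4 units in P1 and 13.7 and 17.0 units in P2 (-1.36, adjusted p = 0.0386). *Dlk1*, an imprinted membrane protein gene related to the Notch ligands, had 50.5 and 55.6 units in P0, 3.37 and 4.81 units in P1 and 0.588 and 0.641 units in P2 (-1.64). Here too, no value of one passage overlapped those of the next. *Tnfrsf19*, a TNF receptor family gene, averaged 184.5 units in P0 and had 2.99 and 3.42 units in P1 and 0.801 and 0.962 units in P2 (-1.16). *Cyp26b1*, whose product degrades retinoic acid, averaged 69.5 units in P0 and had 10.9 and 12.3 units in P1 and 3.58 and 5.24 units in P2 (-1.23). Most of the difference between P2 and P0 of each was already there in P1. *6330403K07Rik*, a gene named after its cDNA clone, averaged 236 units in P0 and had 7.32 and 9.83 units in P1 and 1.39 and 2.14 units in P2 (-1.79, standard error 0.19). With a pseudocount of 5, *Dlk1*, *Tnfrsf19* and *Cyp26b1* were under 2-fold and not called (-0.69, -0.48 and -0.82). *Dlk1* and *Tnfrsf19* were under the floor of the deposited values in all P1 and P2 libraries. They are present only because both P0 libraries reached it, so they could only be lower in P1 than in P0.

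The 6 genes that rose in both steps encode mostly secreted proteins of the matrix and growth factor environment. *Tnfrsf11b* encodes osteoprotegerin, a decoy receptor for the osteoclast factor RANKL. It averaged 6.25 units in P0 and had 325 and 367 units in P1 and 847 in both libraries of P2 (P2 against P1 1.29, standard error 0.11, adjusted p = 0.0386). Its P2 values are tied in the normalized values, so their spread is unknown. *Pappa*, a protease that cleaves IGF-binding proteins, averaged 5.77 units in P0 and had 93.2 and 121 units in P1 and 255 and 314 units in P2 (1.41, standard error 0.17, adjusted p = 0.0386). *Cpxm2*, a carboxypeptidase-like gene, averaged 0.721 units in P0 and had 5.72 and 7.48 units in P1 and 23.2 and 33.6 units in P2 (1.94). The values of the 3 passages did not overlap in these genes. *Ccdc80*, a matrix protein gene, averaged 43.1 units in P0 and had 846 and 894 units in P1 and 1683 and 1942 units in P2 (1.05). *Rgs4*, which dampens G-protein signaling, averaged 17.1 units in P0 and had 32.7 and 43.9 units in P1 and 83.9 and 99.0 units in P2 (1.24). *Gas6*, a ligand of the TAM receptor kinases, averaged 21.7 units in P0 and had 66.3 and 69.5 units in P1 and 137.9 and 142 units in P2 (1.03). With a pseudocount of 5 *Gas6* was just under 2-fold (0.99) and not called, while the other 5 kept their calls.

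**Figure D4:**
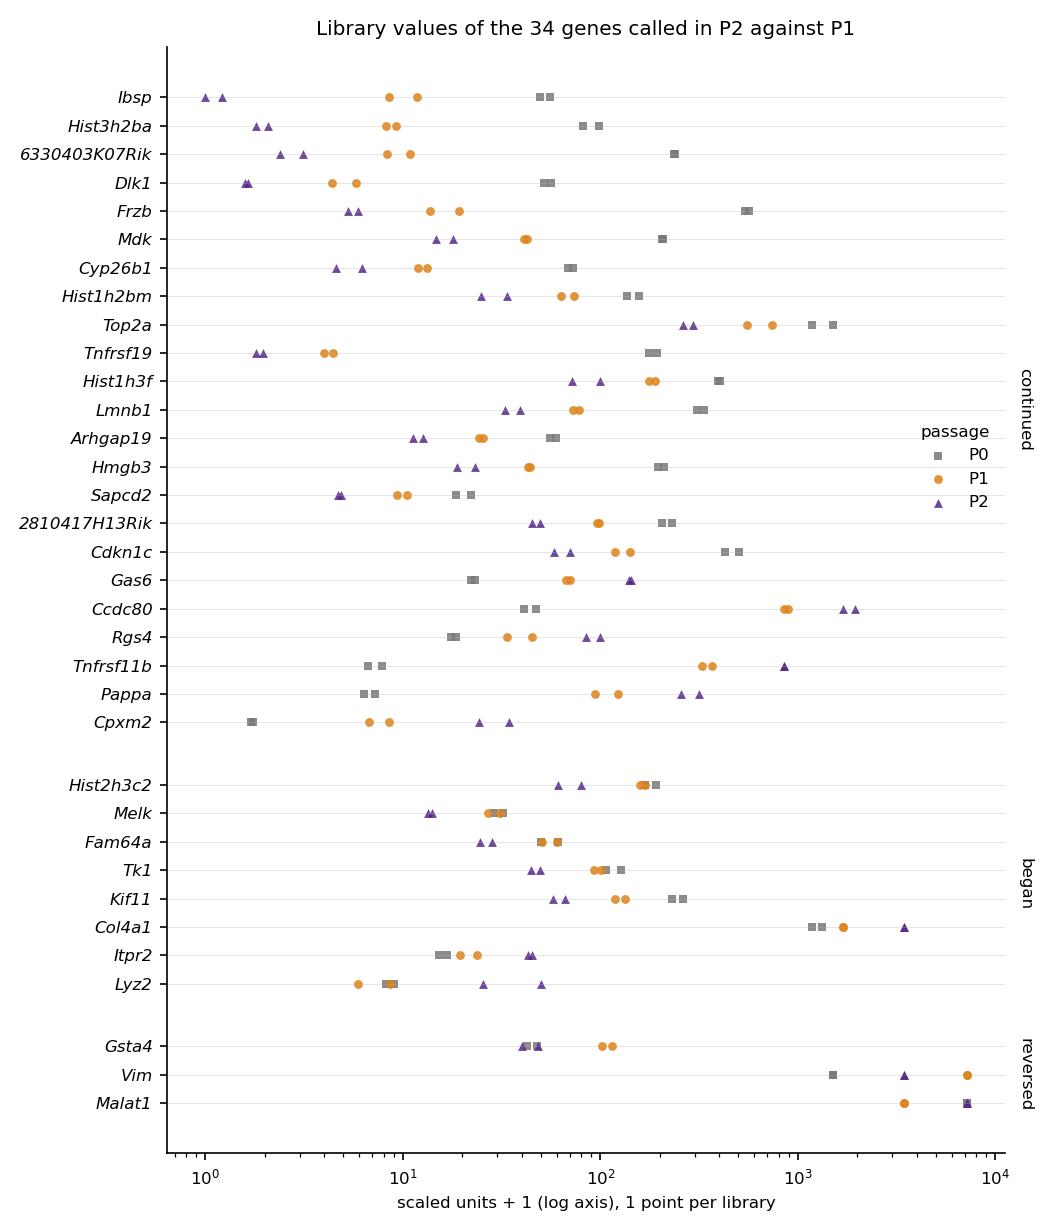
Library values (horizontal log axis, scaled units + 1, 1 point per library) of the 34 genes called in P2 against P1, grouped by course over the passages. The 23 continued genes run on from P1 in the direction of the first step, the 8 that began were not called in P1 against P0, and *Gsta4*, *Vim* and *Malat1* turn back at P2.

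In 8 called genes the step from P0 to P1 was not called, so that the change was called first at P2. A step that missed the call is not shown to be absent. *Lyz2* encodes the lysozyme of macrophages and lies on chromosome 10 from 117277334 to 117282274 (mm10). It averaged 7.67 units in P0 and had 4.91 and 7.58 units in P1 and 24.5 and 49.3 units in P2. Its close copy *Lyz1* was not analysed here, and how reads were split between the copies is not known. The lower P2 value was above every P0 and P1 value (P2 against P1 2.33, standard error 0.34, adjusted p = 0.0474). With a pseudocount of 5 the change was 1.84 and was not called. *Itpr2*, an IP3-gated calcium channel gene, averaged 15.0 units in P0 and had 18.4 and 22.8 units in P1 and 42.2 and 44.1 units in P2 (1.04), and it was not called with a pseudocount of 5 (0.92). *Col4a1*, a chain of basement membrane collagen, averaged 1250.6 units in P0 and had 1681 in both P1 libraries and 3426 in both P2 libraries (1.03), which are tied tiers of the normalized values. The other 5 were *Hist2h3c2*, *Melk*, *Fam64a*, *Tk1* and *Kif11*, all lower in P2. *Kif11* had come close to the call in the first step (-0.97 in P1 against P0), while *Fam64a* had stood level (0.00).

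A return toward the level of P0 was called in 3 genes. *Gsta4*, a glutathione transferase gene that clears products of lipid peroxidation, lies on chromosome 9 from 78191966 to 78209348 (mm10). It averaged 44.3 units in P0 and had 100.4 and 113 units in P1 and 39.2 and 47.3 units in P2. The P2 values span those of P0 (41.7 and 46.8 units). The step up was 1.25 and the step down -1.29 (standard error 0.13, adjusted p = 0.0386). Of 26 genes of glutathione metabolism and NRF2 targets 9 were called higher in P1 against P0 (12.2% of all genes), *Gsta4* among them. *Gsta4* alone was called in P2 against P1, where the list had a median of -0.01. *Nqo1*, a quinone reductase gene and NRF2 target, averaged 14.7 units in P0 and had 54.5 and 71.0 units in P1 and 41.9 and 43.0 units in P2 (-0.54, adjusted p = 0.165).

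The other reversals lie at the top of the scale. *Vim* encodes the intermediate filament protein vimentin. It had 1504 units in both libraries of P0, 7147.5 in both of P1 and 3423 in both of P2 (P2 against P1 -1.06, adjusted p = 0.0301). *Malat1*, a nuclear long non-coding RNA gene on chromosome 19 from 5795690 to 5802672 (mm10), had 7148 units in both libraries of P0, 3422 in both of P1 and 7149.5 in both of P2 (1.06, adjusted p = 0.0301). Each of these P2 changes is exactly 1 step between the first and second tier, which is 2.08-fold, and the duplicates are identical because they share a tier. The size and the standard error of both changes are therefore set by the normalization, and how far the transcripts differed within a tier is unknown. *H19*, an imprinted non-coding RNA gene, stood in the first tier in P0 (7148 units), at 3424 units in P1 and at 2338 units in P2, where the second step is 1.47-fold (adjusted p = 0.0473) and was under the minimum fold. Beyond the called genes, *Frem2*, an extracellular matrix gene, had 9.88 and 13.5 units in P0, 24.1 and 28.1 units in P1 and 6.52 and 16.1 units in P2, with an adjusted p of 0.221 for the second step.

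Most of the first step was held. Of the 2755 genes called in P1 against P0, 2078 were not called in P2 against P1 and had a 95% interval within 2-fold there, 1071 of them higher in P1 and 1007 lower. The falls include genes near 0 units in P1 and P2, whose low values left little room for a further change. For 651 of the 2755 genes the interval reached past 2-fold, so that it was not settled whether the second step reached that size. *Uhrf1*, *Igfbp2* and *Col8a1* were among them, each with a further change in the direction of the first step at an adjusted p under 0.05 in limma's test. *Acta2*, the smooth muscle actin gene, had 19.8 and 32.0 units in P0 and stood at the first tier in P1 and P2. *Cnn1*, which encodes calponin, had at most 0.107 units in P0, 160 and 181 units in P1 and 187 and 276 units in P2 (P2 against P1 0.41, adjusted p = 0.412). *Grem1*, a secreted BMP antagonist, had 17.2 and 18.7 units in P0, 1050.0 and 1168 units in P1 and 1326 and 1504 units in P2 (0.35, adjusted p = 0.219). Of 25 contractile genes 20 were called higher in P1 against P0, where 12.2% of all genes were. In P2 against P1, 0 of 25 were called (0.299% of all genes), at a median of 0.00. Among held falls, *Ngfr*, a neurotrophin receptor gene, had 88.7 and 93.0 units in P0, 0.214 and 0.427 units in P1 and 0.214 and 0.321 units in P2. *Emilin3*, a matrix glycoprotein gene, had 62.7 and 71.5 units in P0 and no more than 0.320 units in any later library. A further fall of such genes could not be measured.

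Of 34 measured transcription factor genes of dental mesenchyme, 18 were called lower in P1 against P0 (12% of all genes), and 13 of these falls were held. None of the 34 was called in P2 against P1, where 0.299% of all genes were, and the median was -0.14. In 10 both P2 values lay below both P1 values and in 4 both lay above, against 19.9% and 18.4% of all genes. *Lef1*, a mediator of Wnt signaling whose interval reached past 2-fold, had 1.28 and 1.60 units in P2, against 3.04 and 4.17 units in P1 (-0.91, adjusted p = 0.0880). *Dlx1*, a homeobox gene of the jaw, had 37.9 and 44.3 units in P2 and 51.2 and 51.8 units in P1 (-0.32, adjusted p = 0.279). *Lhx6*, a LIM homeobox gene, had 42.2 and 51.2 units in P2 and 56.7 and 57.2 units in P1 (-0.29, adjusted p = 0.342). *Msx1*, a homeobox gene required for teeth, had 197 and 242 units in P2 and 192 and 259 units in P1, and the passages overlapped. Immediate early genes, which respond to serum and handling, had a median of -1.79 in P1 against P0 and 0.16 in P2 against P1. In the first step 21 of 28 were called lower (12% of all genes), and in the second 0 were called (0.299%). Only 10 of the 28 had a 95% interval within 2-fold in the second step, and 7 of the 21 falls were held.

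Genes of the interferon response and of antigen presentation leaned upward in P2 without a call. Interferons switch on a shared set of antiviral genes through factors that include STAT2 and IRF9, and the class I molecules on the cell surface are part of that set. Of 21 measured genes 13 had both P2 values above both P1 values (18.4% of all genes) and 3 had both below (19.9%), at a median of 0.43. *Bst2*, which encodes the antiviral membrane protein tetherin, had 19.4 and 28.1 units in P2, against 7.05 and 9.08 units in P1 (1.44, standard error 0.24, adjusted p = 0.0612). *Irf9* had 42.2 and 42.5 units in P2, against 18.96 and 29.5 units in P1 (0.81, adjusted p = 0.144). *Stat2* had 26.4 and 35.2 units in P2, against 12.1 and 21.1 units in P1 (0.89, adjusted p = 0.214). The lower P2 value was above the higher P1 value in each. *Ifi27*, another interferon-induced gene, had 84.0 and 101.8 units in P2 and 32.4 and 58.1 units in P1 (1.07, adjusted p = 0.141). *H2-K1*, a class I gene, had 93.3 and 108 units in P2 and 57.2 and 74.5 units in P1 (0.61, adjusted p = 0.184). *Ifitm1* went the other way, with 0.855 and 1.18 units in P2 and 2.24 and 2.99 units in P1 (-0.84, adjusted p = 0.188). Class I genes are close copies of each other, so reads may be split between them.

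Lysosomal genes were slightly higher. Of 45 measured genes 43 had a fitted value above 0, 26 had both P2 values above both P1 values and 0 had both below (18.4% and 19.9% of all genes), at a median of 0.29. Only *Lyz2* was called, and 38 of 45 had a 95% interval within 2-fold, against 89.4% of all genes. *Neu1*, a sialidase gene, had 54.0 and 57.7 units in P2, against 32.6 and 34.1 units in P1 (0.73, standard error 0.11, adjusted p = 0.0473). *Ctsa*, the protective cathepsin that binds it, had 257 and 293 units in P2, against 189.8 and 194.9 units in P1 (0.51, adjusted p = 0.0741). *Asah1*, the acid ceramidase gene, had 355 and 361 units in P2, against 255 and 281 units in P1 (0.42, adjusted p = 0.0990). In P1 against P0, 20 of the 45 had been called higher and 1 lower (12.2% and 12% of all genes), at a median of 0.86.

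Markers of macrophages were higher beside *Lyz2*. Of 23 listed markers 8 were among the genes tested, and in all 8 both P2 values lay above both P1 values (18.4% of all genes). *Lyz2* was the 1 called. *Csf1r*, the receptor for the macrophage growth factor CSF1, had 2.99 and 3.10 units in P2, against 1.01 and 1.18 units in P1 (0.95, adjusted p = 0.0571). *Ctss*, a cathepsin of antigen-presenting cells, had 2.03 and 4.06 units in P2 and 1.07 and 1.39 units in P1. *Ptprc*, which encodes the pan-leukocyte protein CD45, had 8.55 and 10.6 units in P2 and 7.26 and 8.07 units in P1. The other 4 were at most 3.90 units in either passage. Summed over the 8 genes, the lower values came to 45.1 and the higher to 76.4 units in P2, against 20.3 and 24.9 units in P1. In P0 these sums were 98.2 and 111 units, and 6 of the 8 had been called lower in P1 against P0. Apart from *Lyz2* and *Ptprc*, the markers were under the floor of the deposited values in all P1 and P2 libraries. They are present only because both P0 libraries reached it, so their direction against P0 was fixed by that floor. Listed markers that were not measured could not show the opposite. The P0 sums and these calls therefore cannot show whether macrophage markers fell in P1. The part of macrophages in the *Lyz2*, interferon and lysosomal values was not tested.

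**Figure D5:**
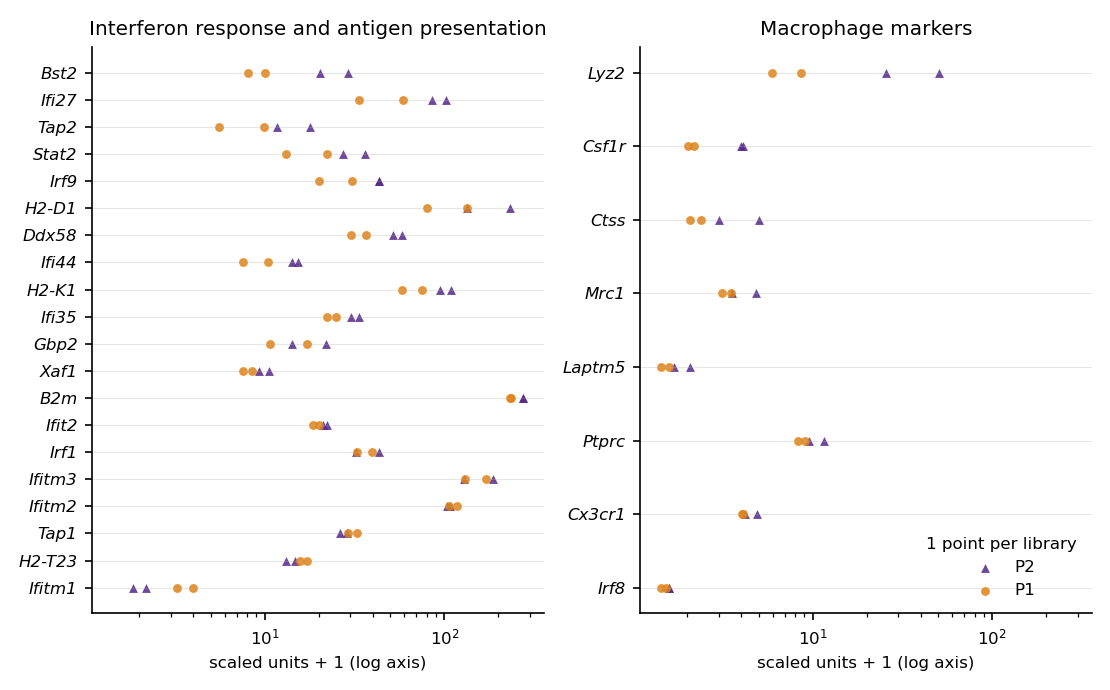
Library values (horizontal log axes, scaled units + 1, 1 point per library) of 20 of the 21 interferon and antigen presentation genes (left) and 8 macrophage markers (right) in P2 (purple triangles) and P1 (orange circles). Of the 20 genes drawn 12 have both P2 values above both P1 values, and all 8 markers do, most of them at low levels.

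Among signaling genes, 9 of 42 Wnt pathway genes had both P2 values above both P1 values and 12 had both below, near the shares of all genes (18.4% and 19.9%), at a median of 0.01. The same counts were 7 and 9 of 37 BMP, 1 and 2 of 14 Hedgehog, 4 and 3 of 22 FGF, 1 and 6 of 17 Notch, 2 and 6 of 14 retinoic acid and 6 and 2 of 21 IGF pathway genes. Of all these genes those called were *Frzb*, *Dlk1*, *Cyp26b1* and *Pappa*. *Sfrp2*, a secreted Wnt antagonist like *Frzb*, had 32.6 and 38.7 units in P2, against 70.9 and 107.9 units in P1 (-1.28, standard error 0.20, adjusted p = 0.0538). *Wisp2*, a matricellular Wnt target, had 101.9 and 178.8 units in P2, against 48.3 and 79.0 units in P1 (1.114, adjusted p = 0.1998). In the IGF list *Igfbp2*, which binds IGFs, had 1506 units in both libraries of P2, against 733.7 and 845.7 units in P1 (0.93, adjusted p = 0.0386). Its P2 values are tied in a tier of the normalized values, so their spread is unknown. *Pappa* was the only called gene of the 21 on that list. *Cxcl12*, a chemokine of stromal cells, was lower, with 68.9 and 87.9 units in P2 and 142.7 and 149 units in P1 (-0.90, adjusted p = 0.0473).

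Of 31 collagen genes 8 had both P2 values above both P1 values and 4 had both below, against 18.4% and 19.9% of all genes, at a median of 0.00. *Col8a1*, a short-chain collagen, had 3428 units in both libraries of P2, against 1942 units in both of P1 (0.82, adjusted p = 0.0386). Both are tied tiers of the normalized values, which set the size and the spread of this change. *Col1a1* had 3425 and 7149.5 units in P2, against 1939 and 2338 units in P1 (1.22, adjusted p = 0.167), so its 2 P2 libraries lay in different tiers. Of 40 matrix proteases and inhibitors *Pappa* and *Cpxm2* were called, and 11 had both P2 values above both P1 values and 8 both below. Of 46 matricellular and proteoglycan genes 12 lay above and 4 below in this way, at a median of 0.28, and *Mdk* was called lower. *Adamts12*, a metalloproteinase gene, had 72.2 and 75.7 units in P2, against 36.5 and 39.2 units in P1 (0.95, adjusted p = 0.0386).

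Of 19 housekeeping genes 0 were called in P2 against P1 (0.299% of all genes), and 16 had a 95% interval within 2-fold, against 89.4% of all genes. In 2 both P2 values lay above both P1 values and in 5 both lay below (18.4% and 19.9% of all genes). A fitted value above 0 was found in 4 of 19. *Tbp*, which encodes a general transcription factor, had 10.6 and 15.8 units in P2 and 13.9 and 14.3 units in P1. *Gapdh*, a glycolytic enzyme gene, had 537 and 611 units in P2 and 581 and 641 units in P1. The median of the list was -0.12. Genes with large differences that were not called included *Lepr*, the leptin receptor gene, with 5.77 and 8.82 units in P2 and 22.5 and 44.3 units in P1 (-2.002, adjusted p = 0.0571). *Lgals3bp*, a secreted glycoprotein gene induced by interferon, had 16.8 and 17.95 units in P2 and 2.03 and 5.34 units in P1 (2.07, adjusted p = 0.0636). *Ccl7*, a chemokine gene, had 11.97 and 29.7 units in P2 and 5.02 and 5.88 units in P1 (1.63, adjusted p = 0.136).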

How the data were processed

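RNA was extracted with the RNeasy kit and libraries were made with the Illumina TruSeq RNA kit. The authors mapped reads to the mouse transcriptome (mm10) with bowtie and RSEM (1.1.21 in the submitters' processing notes) and normalized for GC content with EDASeq. The deposited score is this normalized value, as a mean and an error over 2 libraries per gene and passage. Library values were taken as mean ± error × √2 and were whole numbers for all 11386 genes (tolerance 1e-06). Symbols turned into dates (18) were restored from the identifier, and 11343 identifiers were in the gene name table. One entry of each table is left out here. No count test could be used. In R 4.3.3, log2(scaled value + 1) was fitted over 6 libraries with limma 3.58.1 (eBayes with a trend), after a filter of 1 scaled unit in 2 libraries. Scripts were tested on simulated data. Python 3.11.15 with pandas 2.3.3, numpy 2.4.6 and matplotlib 3.10.9 was used for tables and figures.

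The comparison, its members and the gene lists were chosen with earlier results of these data known. Named genes were all called genes, the 20 largest changes per direction with at least 10 scaled units and no overlap, up to 6 members of each list by the same conditions, the 8 largest held changes per direction and the reversed genes. *Mki67*, *Plk4*, *Hmmr*, *Anln*, *Pcna*, *Gins3*, *Cdkn1a*, *Phlda3*, *Alpl*, *Sp7*, *Msx1*, *Lef1*, *Asah1*, *H2-K1*, *Ifitm1*, *Tbp*, *Gapdh*, *Col1a2*, *Twist1*, the immediate early genes and the macrophage markers beside *Lyz2* were picked with their values in view. Other pseudocounts, filters, scalings, variance priors, thresholds and a fit without P0 were run as alternatives.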

Additional observations from a re-analysis of the deposited data

How the results depend on the processing

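In every called gene the P2 and P1 values did not overlap, so the direction could not change under the alternatives, and it did not. The 10 genes called higher and 24 called lower stayed within 1.5 times under pseudocounts of 0.5 and 0.1, no filter, a minimum mean of 5 scaled units, values as deposited, median-ratio scaling, trimmed-mean scaling, a robust prior, and without genes at the highest value (9 higher and 23 lower). A pseudocount of 5 ended 16 of the 34 calls, *Lyz2*, *Gas6* and *Itpr2* among the higher ones, and gave 11 called lower, all among the 24, with 12 continued genes and 4 that began. The fit of 4 libraries called 0 higher and 0 lower of 11219 genes (limma, 1114 at an unadjusted p under 0.05). Without a variance trend 0 were called higher and 2 lower (*Ibsp* and *Hist3h2ba*), with 2 continued, 0 reversed and 0 that began. An adjusted p under 0.1 gave 19 higher and 41 lower, no minimum fold 19 and 103, an unadjusted p 34 and 71, and no overlap with a 2-fold difference 36 and 75. Of 437 list medians compared, 9 moved by more than the spread between duplicates. Macrophage markers had 0.55 with a pseudocount of 0.1, 0.18 with 5, 1.30 over the 2 markers with a mean of at least 5 units and 0.57 over 6 markers in the fit of 4 libraries. Skeletal muscle markers had -0.61 with a pseudocount of 0.1, -0.24 with 5 and 0.11 over 6 markers with a mean of at least 5 units, against -0.47. Dental epithelium markers had -0.09 with a pseudocount of 0.1, and 3 Schwann cell markers -0.63 in the fit of 4 libraries. The cause of these moves was not tested. No paired analysis was possible because the tables give a mean and an error per passage, and which value belongs to which library is not known. Leaving out each replicate was not run for the same reason. With no counts, the depth that limits the low genes is unknown.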

Other observations

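The 2 libraries of P2 differed widely in genes of the early response to serum and stress. *Fos*, the partner of Jun in the AP-1 factor, had 19.5 and 440.2 units in P2, against 222 and 259.5 units in P1. *Fosb* had 0.160 and 42.6 units in P2, against 25.9 and 33.7 units in P1. *Junb* had 91.1 and 310.0 units in P2, against 116 and 173 units in P1, and *Egr1* had 11.9 and 48.1 units in P2, against 28.8 and 38.2 units in P1. In each of the 4 genes the P1 values lay between the P2 values. The fitted differences of *Fos* (-1.34) and *Fosb* (-2.10) had adjusted p = 0.721 and 0.618 in limma's test. Which P2 value came from which library is not known, so it was not tested whether the high values belong to 1 library.

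Duplicates also disagreed for *Gm3055*, a predicted gene listed at 0 in 1 library and at 9.83 units in the other in P2, against 10.6 and 11.8 units in P1. In P0 it was again listed at 0 in 1 library and at 10.6 units in the other. *Gm10175*, another predicted gene, had 1.92 and 5.56 units in P2, against 15.3 and 22.9 units in P1 (-2.17, adjusted p = 0.136). Predicted genes of this kind may share reads with related copies, and their values are uncertain.

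Genes higher in P2 at an adjusted p under 0.05 but under 2-fold numbered 9. Beside *Neu1*, *Col8a1*, *Igfbp2* and *Adamts12* these were *Dpp7*, a lysosomal peptidase gene (0.69), *Fam101b* (0.76), *Prnp*, the prion protein gene (0.78), *Cth*, an enzyme of cysteine synthesis (0.89), and *Irgm1*, an interferon-induced GTPase gene (0.95). These genes were picked with their values in view.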
